A study of Mus musculus with 69 samples.

Results

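The RNA levels of 7 mouse genes of sulfur amino acid metabolism (Cbs, Cth, Mpst, Sqor, Cdo1, Mat2a and Ahcy) are described in cultured vascular cells exposed to diabetes-like stressors. The members were taken by gene symbol, as 7 of the 56953 gene rows that each of the 3 count tables holds. They were chosen because the study listed Cbs among its regulated genes in KO VSMC exposed to ALL stressors and Mpst among those in EC. The values of Cbs in KO VSMC, and of Mpst in EC, are therefore given as descriptions with no test, and no difference between genotypes is tested for Cbs. The other members belong to the same pathway and were tested together with all genes that passed a filter on low counts, which all 7 members passed in each cell type. Every member can be followed per library, since the cells of 1 animal at 1 passage were split over the 4 conditions as a set.

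The cells came from male C57BL/6 mice. WT VSMC are primary smooth muscle cells of the aorta of wild-type animals (4 sets). KO VSMC come from EGFR-KOsmc animals (4 sets), in which a floxed Egfr is deleted by Cre under the SM22 promoter, so the deletion depends on SM22 activity in the cells. EC are heart cells depleted of CD45 and selected for CD31 on magnetic beads (10 sets from 9 animals, labelled wild type). After serum withdrawal, cells stayed in control medium (Control) or received 20 mM glucose with 100 µM free fatty acids (HG + FFA), 30 nM angiotensin II with 300 nM of a catecholamine (AII + NA), or all of these (ALL) for 24 h. The catecholamine is called epinephrine in the labels and norepinephrine in the study's methods, and fatty-acid-free albumin was present in all media, Control included. The fatty acid dose is that of the labels, whereas the study's methods list 100 µM oleate and 100 µM palmitate. There were 69 libraries: 4 per condition in WT VSMC and KO VSMC (3 for ALL in KO VSMC), and 9 Control, 10 HG + FFA, 9 AII + NA and 10 ALL in EC. Not analysed here are set 5 with ALL (KO VSMC) and, in EC, the Control of set 10 and set 15 with AII + NA.

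Total counts ranged from 23626664 to 37801299 per library in WT VSMC, from 23238979 to 35120866 in KO VSMC and from 17166133 to 43240489 in EC. Levels are given in FPM (counts per 1000000 counts of the library, its total scaled by edgeR's TMM factor over all libraries). Egfr averaged 246 to 430 FPM over the libraries of a WT VSMC set and 0.96 to 1.84 FPM in KO sets 6, 7 and 8, but 36.5 FPM in KO set 5. Results in KO VSMC that change without set 5 are therefore given both ways. The 10 endothelial markers (Pecam1, Cdh5 and others) summed to 79.1 to 145 FPM in EC sets 9, 11 and 13 and to more in the other 7 EC sets, with the highest at 4653 FPM. In WT VSMC the same sum was 19.5 to 97.9 FPM. The 5 fibroblast markers (Pdgfra, Dpt and others) summed to 609 to 9991 FPM in EC and 4361 to 9375 FPM in WT VSMC. In KO VSMC they summed to 5919 FPM in set 5 and to 1525 to 2177 FPM in sets 6 to 8. The 8 smooth muscle markers (Acta2, Tagln and others) summed to 3284 FPM in KO set 5 and 901 to 2018 FPM in KO sets 6 to 8. That sum was 3301 and 3014 FPM in EC sets 11 and 13 and 219 to 866 FPM in the other EC sets. In WT VSMC it was 773 to 1304 FPM. EC sets 15 and 16 came from the animals that also gave KO sets 7 and 6, and their Egfr was 9.31 and 2.61 FPM. Egfr was 12.6 to 43.8 FPM in EC sets 10, 12, 14, 17 and 18. In EC sets 9, 11 and 13, which had few endothelial markers, it was 133 to 154 FPM. EC sets 17 and 18 came from 1 animal. All VSMC carried batch label B1 and all EC batch label B2, so cell type and batch cannot be told apart.

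Methionine is activated to S-adenosylmethionine, the methyl donor of the cell, and returns through S-adenosylhomocysteine to homocysteine. Cystathionine beta-synthase (Cbs) commits homocysteine to transsulfuration, and cystathionine gamma-lyase (Cth) releases cysteine from the product. Both enzymes, and mercaptopyruvate sulfurtransferase (Mpst), can form hydrogen sulfide, a vasodilator in the vessel wall, which sulfide quinone oxidoreductase (Sqor) oxidises in mitochondria, while cysteine dioxygenase (Cdo1) diverts cysteine toward taurine and sulfate.

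Promoters of the members whose RNA was lower under stressors are shown so that the start-proximal sequence can be read beside the values. The windows run from 250 bases before to 50 bases after a transcript start, from RefSeq on build GRCm38.p6, which is not the build of the counts (mm39), and 5 of the 7 members were matched to such windows. Capitals mark matches to motifs searched on both strands, with those of the minus strand shown as reverse complements. The motif called CCAAT box is read by NF-Y, the GC box (GGGCGG) by the SP1 family and the E-box, spelled CACGTG, by bHLH factors. The element TGATGNAA is read by ATF4 with C/EBP and TGACNNNGC is the core of the antioxidant response element of NRF2. The PPAR direct repeat was searched as well.
Cbs (chr17:31637156-31637455, minus strand): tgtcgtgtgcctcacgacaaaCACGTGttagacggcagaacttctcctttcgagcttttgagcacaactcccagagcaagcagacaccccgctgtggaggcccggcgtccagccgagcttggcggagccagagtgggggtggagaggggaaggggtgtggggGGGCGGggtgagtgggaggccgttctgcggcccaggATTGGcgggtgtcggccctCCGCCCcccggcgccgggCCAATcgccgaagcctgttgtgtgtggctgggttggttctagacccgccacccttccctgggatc
Mpst, the second of its 3 listed starts (chr15:78406551-78406850, plus strand): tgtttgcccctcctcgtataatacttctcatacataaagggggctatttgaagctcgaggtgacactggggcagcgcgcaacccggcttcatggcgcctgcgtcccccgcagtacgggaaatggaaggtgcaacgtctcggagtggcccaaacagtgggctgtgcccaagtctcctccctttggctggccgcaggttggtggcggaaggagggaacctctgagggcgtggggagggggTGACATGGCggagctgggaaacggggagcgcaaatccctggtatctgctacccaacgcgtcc
Sqor (chr2:122771463-122771762, plus strand): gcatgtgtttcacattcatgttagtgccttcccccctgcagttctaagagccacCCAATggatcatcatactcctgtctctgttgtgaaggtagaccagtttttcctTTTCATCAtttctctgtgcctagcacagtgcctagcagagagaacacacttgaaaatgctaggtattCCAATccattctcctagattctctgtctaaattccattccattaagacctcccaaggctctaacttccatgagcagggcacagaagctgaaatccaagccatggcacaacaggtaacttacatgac
The Cbs window held 2 CCAAT boxes, 2 GC boxes and 1 E-box. The Mpst window, shown because it holds a match, had 1 antioxidant response core, whereas the windows of the other 2 Mpst starts had no match, and the Sqor window 2 CCAAT boxes and 1 ATF4-C/EBP element. Over all 32544 promoter windows, 37.4% held the CCAAT box, 35.9% the GC box, 7.17% the E-box, 3.91% TGATGNAA, 12.4% TGACNNNGC and 0.0399% the PPAR repeat. A match describes letters in the window and was not tested for binding.

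Levels in Control cells are compared between genes per kb of exon. In WT VSMC, Mat2a (27.1 ± 1.81 FPM per kb, SD, n = 4) and Ahcy (23.8 ± 4.73) were highest and overlapped each other. They were followed by Mpst (19.4 ± 1.26), Sqor (15.5 ± 0.75) and Cdo1 (8.73 ± 6.18). Mpst overlapped Ahcy, Mpst and Sqor did not overlap, and Cdo1 spread over the values of Sqor. The transsulfuration genes Cth (0.55 ± 0.24 FPM per kb) and Cbs (0.31 ± 0.15) were lowest, with overlapping ranges. In EC Mat2a (31.2 ± 4.69) and Ahcy (23.2 ± 5.45) again had the highest means. Ahcy overlapped Mat2a, Mpst, Cdo1 and Sqor, and Cdo1 also overlapped Mat2a. Mpst (14.6 ± 4.89), Cdo1 (14.2 ± 13.5) and Sqor (14.1 ± 5.34) could not be ordered beyond their spread. The transsulfuration genes again ended the order, with Cbs at 0.54 ± 0.42 and Cth at 0.26 ± 0.18 FPM per kb (SD, n = 9). In KO VSMC, Ahcy (33.7 ± 8.92), Mat2a (26.2 ± 0.75), Cdo1 (26.1 ± 18.1) and Mpst (25.1 ± 8.73) overlapped. They were followed by Sqor (17.4 ± 4.41), which overlapped Ahcy, Cdo1 and Mpst. Cth (0.77 ± 0.27) and Cbs (0.62 ± 0.42) were again lowest (SD, n = 4). Behind the low values stood 21 to 194 counts per library for Cbs in WT VSMC, 34 to 425 in KO VSMC and 33 to 763 in EC. For Cth in EC the counts ran from 0 to 98.

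**Figure D1:**
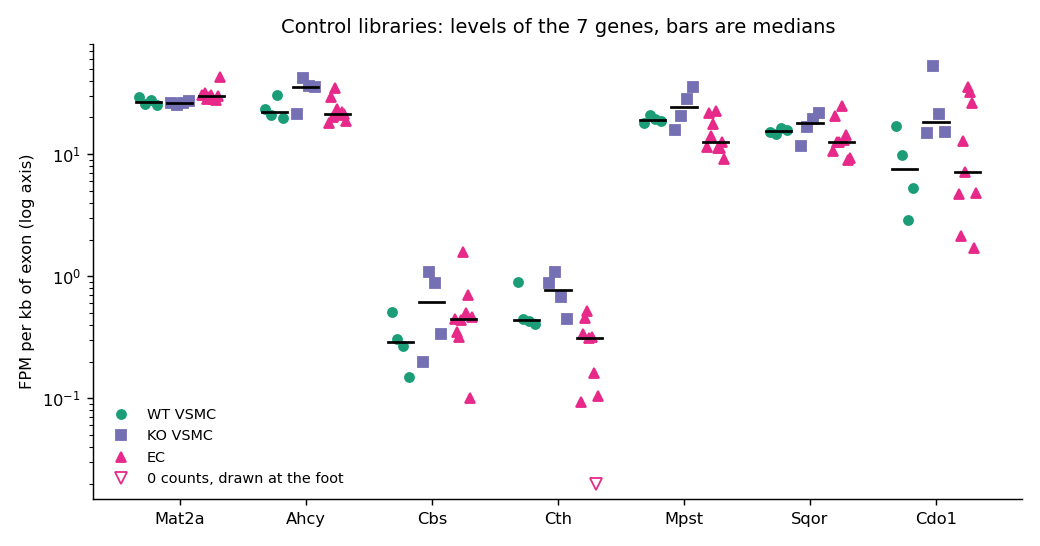
Control levels of the 7 members in FPM per kb of exon (log axis) for WT VSMC, KO VSMC and EC, with 1 point per library and the median as a black bar. Cbs and Cth lie below the other members in each cell type, and the EC library in which Cth had a count of 0 is drawn at the foot of the panel.

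Control cells of the 2 VSMC genotypes were then compared, without pairing because they come from different animals. None of the 6 members other than Cbs passed edgeR's quasi-likelihood test with Benjamini-Hochberg adjustment over 16089 genes (FDR under 0.05), of which 0.00622% did, and none passed DESeq2. The difference with the lowest FDR was that of Cdo1, at 1.56 ± 0.58 (log2FC of KO VSMC over WT VSMC, with SE, FDR 0.392), and that of Cbs, given as a description, was 0.997 ± 0.56 (95% interval −0.11 to 2.1). At an unadjusted p under 0.05, 12.2% of genes differed. Between EC and WT VSMC in Control medium, none of the 6 members other than Mpst passed edgeR, beside 6.7% of 17115 genes that were higher and 5.35% that were lower in EC, nor did any pass DESeq2. Cbs differed by 0.82 ± 0.55 (log2FC of EC over WT VSMC, FDR 0.33) and Cth by −1.09 ± 0.73 (FDR 0.334), intervals that also span 0. EC set 9 and WT set 1 shared an animal, as did EC sets 17 and 18, and the fit treated these Control libraries as independent.

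The methionine cycle genes stayed close to Control. Mat2a, the methionine adenosyltransferase of extrahepatic cells (ENSMUSG00000053907, chr6:72409779-72416684 on mm39, minus strand, of whose exons 30.8% overlap Ggcx or Particl on the other strand), averaged 127 ± 8.46 FPM in WT VSMC Control and 135 ± 5.90 FPM with ALL (SD, n = 4). Its log2FC was between −0.01 and 0.12 in the 9 stressor contrasts against Control, and none passed edgeR. Ahcy, which hydrolyses S-adenosylhomocysteine (ENSMUSG00000027597, chr2:154901230-154916422, minus strand), averaged 69.4 ± 13.8 FPM in WT VSMC Control and 78.1 ± 13.4 FPM with ALL (log2FC 0.18 ± 0.09 SE, edgeR FDR 0.279). In KO VSMC, Ahcy was lower than Control in each of 4 sets with AII + NA (log2FC −0.25 ± 0.09, edgeR FDR 0.509), a pattern shared by 6.33% of the genes tested.

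Among the conditions in KO VSMC, Cbs, the entry into transsulfuration (ENSMUSG00000024039, chr17:31827868-31856646, minus strand), was lowest with ALL. In KO sets 5, 6, 7 and 8 its Control level was 2.26, 12.2, 10.0 and 3.78 FPM. With HG + FFA it was 2.17, 8.80, 7.16 and 2.48 FPM, and with AII + NA 2.58, 10.5, 9.29 and 4.52 FPM. With ALL, sets 6, 7 and 8 held 6.93, 3.85 and 1.30 FPM, which is 56.9%, 39% and 36.1% of their own Control. Sets 6 and 7 were above set 8 in each condition, and above set 5 in each condition that set 5 had. The groups therefore overlapped, although each of the 3 sets with ALL was lower with ALL than with any other condition. The fitted log2FC for ALL was −1.13 ± 0.19 (45.6% of Control). For HG + FFA it was −0.42 ± 0.17 and for AII + NA 0.02 ± 0.17, all 3 sharing the Control libraries. The value for ALL belongs to the contrast that named Cbs, and the others share its Control libraries, so all are a description. Among all genes tested, 0.399% passed edgeR for ALL and 16.4% were lower than Control in each of the 3 sets.

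In WT VSMC, Cbs in sets 1 to 4 was 5.82, 3.50, 3.02 and 1.70 FPM in Control and 4.03, 2.23, 2.77 and 0.98 FPM with ALL. Set 1 was highest and set 4 lowest in both, and each set was lower with ALL, at 59.9% to 92.0% of its Control. The log2FC was −0.52 ± 0.19 (edgeR FDR 0.109), which did not pass, and DESeq2 did not call it either. With HG + FFA (3.89, 2.58, 3.80 and 1.03 FPM) and with AII + NA (3.79, 2.76, 4.16 and 0.91 FPM) sets 1, 2 and 4 were lower and set 3 higher than Control. For Cbs, the log2FC with ALL in WT VSMC exceeded the one in KO VSMC by 0.61 ± 0.27, given as a description.

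**Figure D2:**
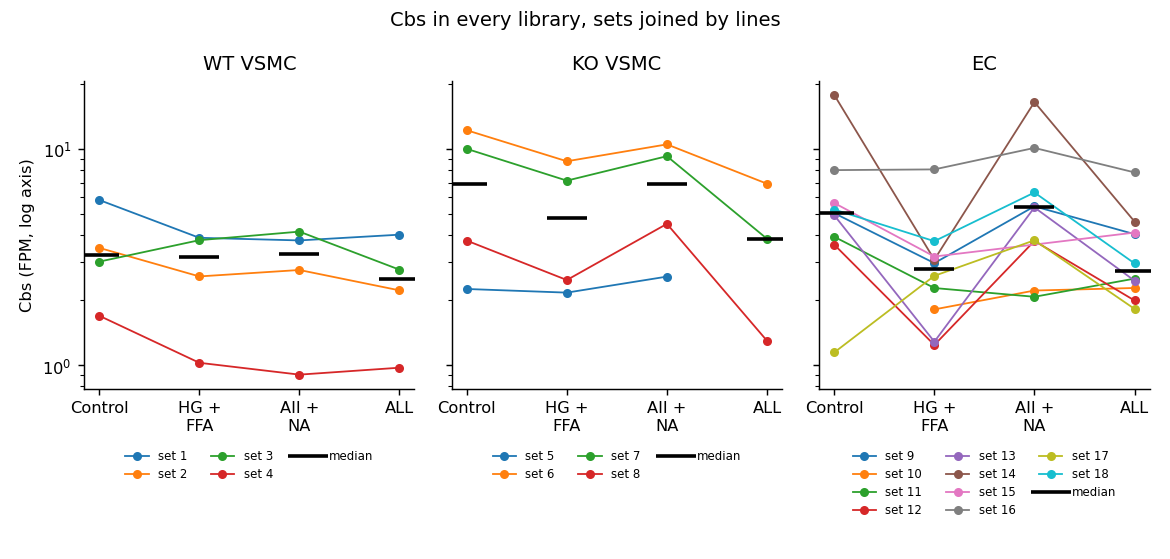
Cbs in FPM (log axis) in Control, HG + FFA, AII + NA and ALL for WT VSMC, KO VSMC and EC; each line joins the libraries of 1 set (set 15 passing over AII + NA) and black bars are medians. The KO VSMC lines fall to between 1.30 and 6.93 FPM with ALL, and the EC median is 5.06 FPM in Control against 2.79 FPM with HG + FFA.

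In EC, which were not used to choose Cbs, its level fell with HG + FFA. Control libraries ran from 1.15 to 17.8 FPM with a median of 5.06 FPM (n = 9), and HG + FFA libraries from 1.24 to 8.07 FPM with a median of 2.79 FPM (n = 10). The ranges overlapped, and within sets the level was lower in 7 of 9 sets, at a median of 59.0% of Control, with set 14 at 17.8% and set 17 at 216%. The log2FC was −0.84 ± 0.23 (edgeR FDR 0.0334, DESeq2 FDR 0.00672), and Cbs met the study's criteria for a DEG (passing both tools, |log2FC| above 0.64 and 3 FPM), as 0.641% of genes did. Of the 6 members tested in that contrast, Cbs was the 1 that passed edgeR, beside 3.53% of 17148 genes in either direction and 1.88% lower. The call was lost without EC sets 9, 11 and 13, the sets with few endothelial markers (log2FC −0.69, edgeR FDR 0.246), and when set 9, 12, 13, 14 or 15 was left out alone (edgeR FDR 0.0518 to 0.137). It was also lost with the animal in place of the set as block (edgeR FDR 0.103), with only the 2 groups fitted (edgeR FDR 0.171) and with no block (edgeR FDR 1). The sum of endothelial markers ran from 85.2 to 4364 FPM in Control and from 80.2 to 5156 FPM with HG + FFA, and that of fibroblast markers from 712 to 11130 FPM and from 434 to 8611 FPM. Fitted within sets, the 10 endothelial markers had a median log2FC of −0.04 (1 passed edgeR, Emcn, which was higher) and the 5 fibroblast markers −0.29 (1 passed, Col1a1, which was lower). Their part in the result was not tested, and in bulk samples fewer cells of a type and less RNA per cell cannot be told apart.

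With ALL, Cbs in EC was lower in 8 of 9 sets, at a median of 65.0% of Control (1.83 to 7.81 FPM, median 2.74 FPM). The log2FC was −0.64 ± 0.23 (edgeR FDR 0.124), which did not pass. With AII + NA the median was 5.38 FPM (2.08 to 16.5 FPM) and the log2FC 0.11 ± 0.23 (FDR 0.924). The difference between ALL and AII + NA was −0.75 ± 0.23 (edgeR FDR 0.0601, DESeq2 FDR 0.0197), in a comparison in which 3.22% of genes passed edgeR. Between ALL and HG + FFA it was 0.20 ± 0.22.

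Cth, which completes transsulfuration (ENSMUSG00000028179, chr3:157599868-157630739, minus strand), was lower than Control in each set with HG + FFA and with ALL in both VSMC genotypes. With HG + FFA and with ALL, so were 10.9% and 13.9% of genes in WT VSMC, and 5.79% and 16.4% in KO VSMC. In WT VSMC sets 1 to 4 Cth was 4.35, 2.16, 2.096 and 1.95 FPM in Control, 3.28, 1.71, 0.89 and 1.29 FPM with HG + FFA and 3.96, 1.20, 1.12 and 1.58 FPM with ALL. Set 1 was far above the others in each, and without it the Control and HG + FFA values did not overlap. The log2FC was −0.64 ± 0.20 with HG + FFA (edgeR FDR 0.214) and −0.52 ± 0.20 with ALL (edgeR FDR 0.142), and neither passed. In KO VSMC sets 5 to 8 it was 4.27, 5.27, 3.27 and 2.17 FPM in Control, 2.91, 3.62, 2.01 and 1.28 FPM with HG + FFA, and 2.77, 1.75 and 1.65 FPM with ALL in sets 6 to 8. The sets kept their order of levels, and the ranges overlapped. The log2FC for HG + FFA was −0.625 ± 0.177 (edgeR FDR 0.195), which did not pass. The log2FC for ALL was −0.77 ± 0.20, which did not pass edgeR (FDR 0.139) but passed DESeq2 (FDR 0.025). With AII + NA the log2FC of Cth was 0.05 ± 0.20 in WT VSMC and −0.03 ± 0.17 in KO VSMC. In EC Cth did not exceed 3.48 FPM in any library and was at a count of 0 in the Control library of set 17, so that its log2FC of −0.59 ± 0.43 with HG + FFA (edgeR FDR 0.52) came with a wide error.

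Mpst forms persulfide and sulfide from mercaptopyruvate (ENSMUSG00000071711, chr15:78290384-78298215, plus strand). Of its exons 8.92% overlap Tst on the opposite strand. The counting strand is not stated, so how reads there were assigned between the 2 genes is not known. In EC Mpst was lower than Control in each set under all 3 conditions. The level ran from 23.7 to 59.1 FPM in Control (median 32.6 FPM, n = 9), from 11.6 to 53.4 FPM with HG + FFA (median 19.9 FPM, n = 10), from 15.2 to 53.9 FPM with AII + NA (median 28.0 FPM, n = 9) and from 18.4 to 43.8 FPM with ALL (median 20.7 FPM, n = 10). The ranges overlapped because sets differed in level, whereas 9 of 9 sets were lower with HG + FFA, 8 of 8 with AII + NA and 9 of 9 with ALL. The medians were 58.9%, 83.4% and 69.7% of Control and the log2FC −0.70 ± 0.11, −0.33 ± 0.11 and −0.53 ± 0.11. These values come from the cell type in which the study named Mpst and share the Control libraries, so they are a description. Being lower in every set was found for 1.43%, 0.688% and 1.26% of the genes tested in those conditions, and 3.18% passed edgeR for ALL and 0.0% for AII + NA.

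In VSMC, where Mpst was tested, it was lower with HG + FFA in WT sets 1 to 4, at 36.1, 42.0, 35.3 and 49.1 FPM against 47.2, 54.9, 51.1 and 49.2 FPM in Control. With ALL it was 31.6, 49.9, 39.2 and 47.7 FPM. Set 4 was nearly at its Control level in both conditions. The log2FC was −0.33 ± 0.11 (edgeR FDR 0.22) with HG + FFA and −0.28 ± 0.11 (edgeR FDR 0.125) with ALL, and neither passed. In KO sets 5 to 8 Mpst was 41.3, 53.5, 74.2 and 93.0 FPM in Control, 49.99, 36.6, 33.2 and 39.3 FPM with HG + FFA, and 37.4, 38.2 and 43.3 FPM with ALL in sets 6 to 8. Sets 6 to 8 were lower in both conditions without overlap with their own Controls. Set 5 was higher with HG + FFA, at 121% of its Control. It differed from the other KO sets in Egfr and in cell type markers, and the part of either was not tested. The log2FC for HG + FFA was −0.68 ± 0.18 (edgeR FDR 0.174, DESeq2 FDR 0.0323) and without set 5 −0.998 (edgeR FDR 0.00172). For ALL it was −0.73 ± 0.20 (edgeR FDR 0.162, DESeq2 FDR 0.0366) and without set 5 −0.87 (edgeR FDR 0.00571). The WT VSMC effect minus the KO VSMC effect for ALL was 0.45 ± 0.24 (edgeR FDR 0.698), so a difference between the genotypes was not shown.

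Tst, the rhodanese that lies beside Mpst and transfers sulfur to cyanide, is no member and is given for comparison. It fell with ALL in WT VSMC (log2FC −0.49 ± 0.11, edgeR FDR 0.0105), being lower in 4 of 4 sets, a call lost without set 1 (FDR 0.0877) or set 2 (FDR 0.052), with means of 14.04 ± 3.42 FPM in Control and 9.96 ± 2.01 FPM with ALL (SD, n = 4). In EC with HG + FFA its log2FC was −0.57 ± 0.17 (edgeR FDR 0.0612) and it was lower in 7 of 9 sets. Within sets, log2 levels of Mpst and Tst went together. The r was 0.80 over 16 WT VSMC, 0.91 over 15 KO VSMC and 0.71 over 38 EC libraries. These libraries share sets and conditions, and the exons of the 2 genes overlap in part.

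Sqor, which oxidises sulfide in mitochondria (ENSMUSG00000005803, chr2:122606981-122651489, plus strand), fell with ALL in WT VSMC. Sets 1 to 4 held 72.5, 70.2, 78.3 and 75.8 FPM in Control, 60.5, 49.2, 67.8 and 67.2 FPM with HG + FFA, 67.8, 69.0, 72.6 and 67.5 FPM with AII + NA and 48.7, 48.0, 67.8 and 56.5 FPM with ALL. Control values did not overlap those of HG + FFA or of ALL, and each set was lower in all 3 conditions. The log2FC for ALL was −0.44 ± 0.08 (edgeR FDR 0.00458, DESeq2 FDR 9.16e-05), below the size of 0.64 asked of a DEG, and it did not pass without the set block (edgeR FDR 0.468). It was the 1 of 7 members that passed edgeR for ALL in WT VSMC, where 7.45% of 16905 genes passed in either direction and 3.53% were lower. With ALL in WT VSMC, markers of cell types moved as well. The 8 smooth muscle markers had a median log2FC of 0.73, with Mylk and Tagln passing edgeR (higher) and a summed level of 381 to 1212 FPM in Control and 1121 to 1591 FPM with ALL. The 10 endothelial markers had a median of −0.51, with Cdh5 and Emcn lower and Flt1 higher, and a summed level of 15.6 to 99.6 FPM in Control and 22 to 83.6 FPM with ALL, and Tnnt2 was higher. Their part in the changes of Sqor, Tst and Selenbp1 was not tested. For HG + FFA no member passed edgeR (0.538% of genes did), although 3 members, Cth, Mpst and Sqor, were lower in each of 4 sets, as were 10.9% of genes. With ALL, 4 members (Cbs, Cth, Mpst and Sqor) were lower in each set, beside 13.9% of genes. For AII + NA no member passed edgeR or DESeq2, beside 0.0532% of genes in edgeR.

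In KO VSMC the log2FC of Sqor was −0.19 ± 0.09 with HG + FFA, −0.16 ± 0.09 with AII + NA and −0.13 ± 0.10 with ALL, and none passed edgeR (FDR 0.399, 0.522 and 0.651). Its level was 55.7, 79.5, 93.4 and 105 FPM in Control of sets 5 to 8 and 70.8, 89.3 and 84.6 FPM with ALL in sets 6 to 8. The interaction of ALL with genotype was −0.30 ± 0.12 for Sqor (WT VSMC effect minus KO VSMC effect, edgeR FDR 0.605), and none of the 6 members tested for an interaction passed edgeR, beside 0.0109% of 18339 genes for ALL. In EC, Sqor changed by −0.16 ± 0.06 with HG + FFA (edgeR FDR 0.12) and by −0.10 ± 0.06 with ALL (edgeR FDR 0.431).

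**Figure D3:**
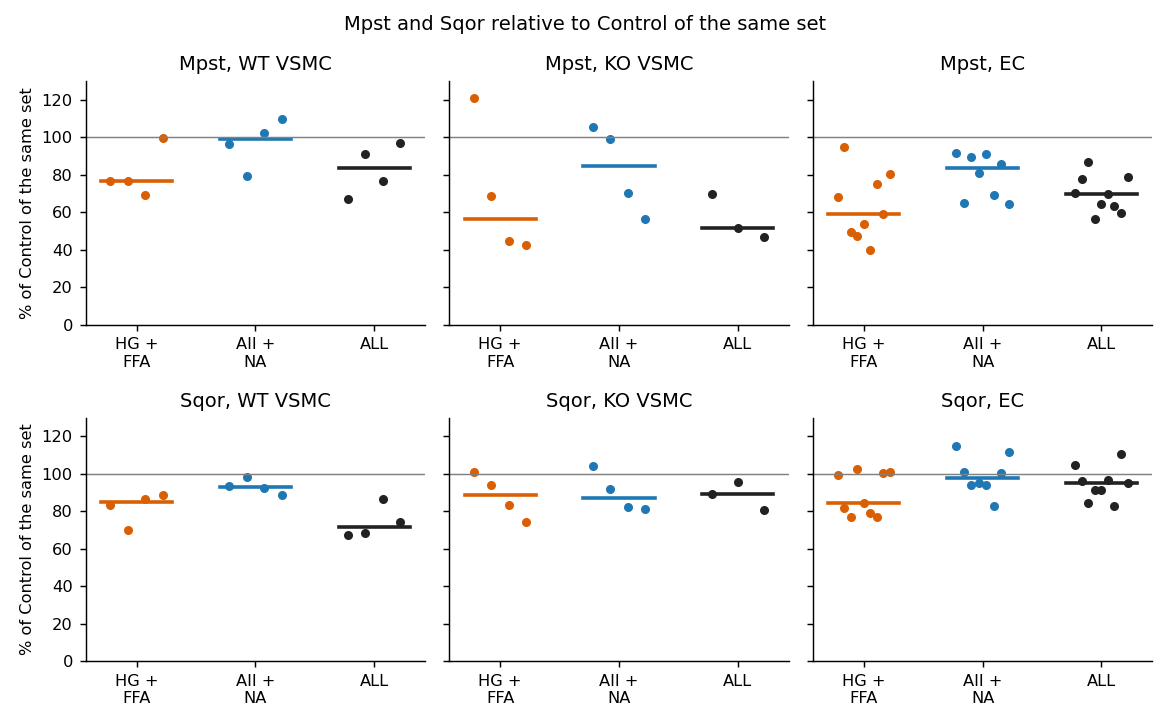
Mpst and Sqor in each set as a percentage of the Control level of the same set under each stressor condition, for WT VSMC, KO VSMC and EC; points are sets, thick bars medians and the thin line at 100% is no change. Mpst lies below 100% in every EC set and Sqor in every WT VSMC set, while KO set 5 stands at 121% for Mpst with HG + FFA.

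Cdo1, which oxidises cysteine to its sulfinate (ENSMUSG00000033022, chr18:46842652-46861627, minus strand), had the widest spread between sets of the 7 members in WT VSMC and EC (SD of log2 Control levels 1.10 and 1.64). In WT VSMC sets 1 to 4 it was 92.0, 53.0, 15.6 and 28.9 FPM in Control, 80.8, 89.6, 20.4 and 54.1 FPM with AII + NA and 46.1, 23.2, 15.5 and 36.3 FPM with ALL. Sets 2, 3 and 4 were higher with AII + NA and set 1 lower, and sets 1 and 2 were clearly lower with ALL whereas set 4 was higher. The log2FC was 0.47 ± 0.24 for AII + NA (edgeR FDR 0.568) and −0.49 ± 0.24 for ALL (edgeR FDR 0.256). The difference between ALL and AII + NA was −0.96 ± 0.24 and did not pass edgeR (FDR 0.0614) but passed DESeq2 (FDR 0.0484). In the same comparison Sqor passed edgeR at −0.34 ± 0.08 (FDR 0.0497), beside 1.36% of genes, and lost the call when any 1 of the 4 sets was left out.

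In KO VSMC Cdo1 Control levels were 81.0, 286, 115 and 82.8 FPM in sets 5 to 8, with set 6 far above the rest. Its log2FC was between −0.13 and −0.07 in the 3 conditions and none passed edgeR. In EC the Control level ran from 9.29 to 192 FPM (median 38.7 FPM, n = 9), a 20.4-fold range on the scale of log2(FPM + 0.1). The SD of log2 Control levels between EC sets was 1.64, against 0.23 to 0.47 for the ratios of stressed to Control cells within sets. The log2FC of Cdo1 in EC was −0.07 ± 0.10 with HG + FFA, 0.07 ± 0.11 with AII + NA and −0.00 ± 0.10 with ALL.

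**Figure D4:**
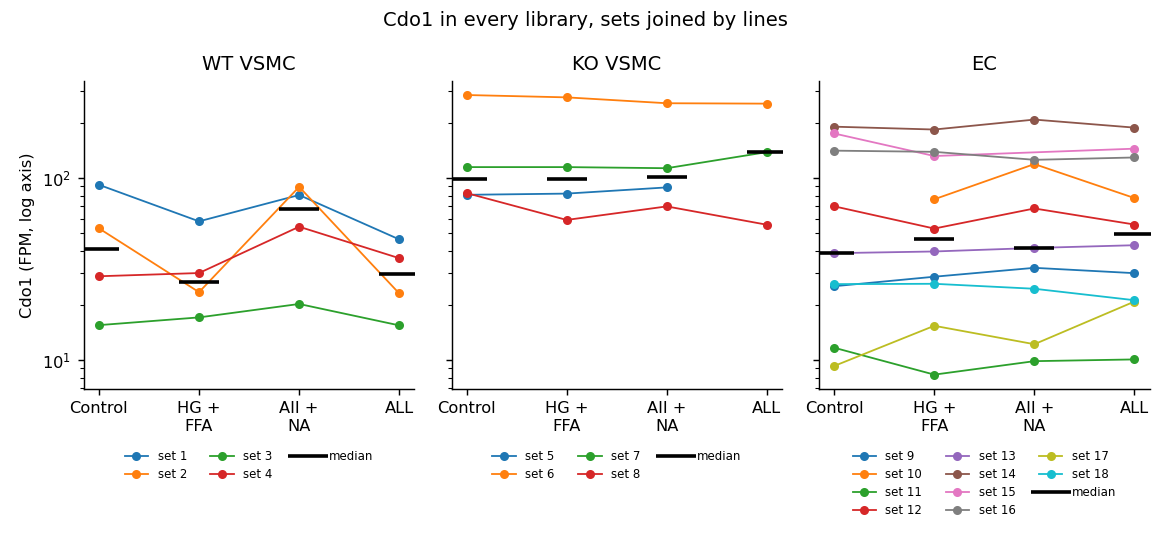
Cdo1 in FPM (log axis) by condition in WT VSMC, KO VSMC and EC; each line joins the libraries of 1 set and black bars are medians. EC sets lie between 8.32 and 210 FPM, with set 17 rising to 225% of its Control with ALL, and all 4 WT VSMC lines drop from AII + NA to ALL.

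For AII + NA in KO VSMC and in EC, no gene at all passed edgeR or the DEG criteria (0.0% each), whereas 9.76% and 6.67% had an unadjusted p under 0.05. For HG + FFA in KO VSMC, 0.439% of genes passed edgeR and none of the 6 tested members did, with Cbs and Cth lower in each of 4 sets as were 5.79% of genes. For ALL in EC, none of the 6 tested members passed edgeR, beside 3.18% of genes. Between ALL and HG + FFA no tested member passed edgeR or DESeq2 in any cell type, beside 0.0414% of genes in edgeR in WT VSMC and 0.0% in KO VSMC and EC. Between ALL and AII + NA in KO VSMC, Cth differed by −0.74 ± 0.20 (edgeR FDR 0.153, DESeq2 FDR 0.045), beside 0.399% of genes passing edgeR. Whether ALL departed from the sum of both stressor effects on the log2 scale was also tested: no member passed edgeR in WT VSMC, where Cdo1 departed by −0.53 ± 0.34 (FDR 0.9998), nor did any gene (1.72% had an unadjusted p under 0.05). In KO VSMC the departure of Cbs was −0.73 ± 0.26 and in EC that of Mpst 0.49 ± 0.15, both as descriptions. No other member passed in edgeR there either.

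**Figure D5:**
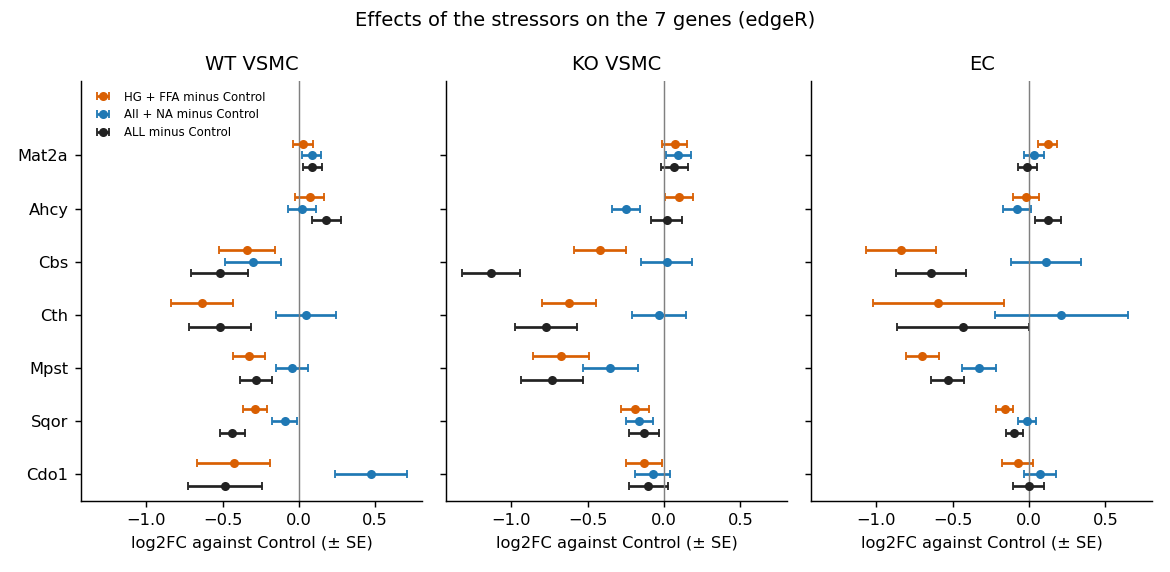
Fitted log2FC against Control (points) with SE (bars) for the 7 members, by stressor condition and cell type. Points of Mat2a lie between −0.01 and 0.12, Cbs lies at −1.13 for ALL in KO VSMC and Sqor at −0.44 for ALL in WT VSMC.

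The wider pathway was read from 5 lists. Of 11 tested genes of sulfide oxidation and cysteine catabolism, Slc6a6, the taurine transporter, rose with HG + FFA in all 3 cell types. Its median level went from 94.5 to 196 FPM in WT VSMC, from 62.5 to 151 FPM in KO VSMC and from 166 to 250.4 FPM in EC, and every set was higher (4 of 4, 4 of 4 and 9 of 9). The log2FC was 0.99 ± 0.12 in WT VSMC (edgeR FDR 0.00118), 0.92 ± 0.16 in KO VSMC (edgeR FDR 0.0159) and 0.61 ± 0.08 in EC (edgeR FDR 1.05e-05). With ALL it was 1.49 ± 0.12 in WT VSMC (edgeR FDR 8.75e-06), 0.86 ± 0.18 in KO VSMC (edgeR FDR 0.0468, lost without set 6, 7 or 8) and 0.53 ± 0.08 in EC (edgeR FDR 6.87e-05). The call for HG + FFA in KO VSMC was lost without set 6 or 7. Fitted without the set block, no gene of the 5 lists that passed against Control did so (edgeR FDR 0.323 to 1). The difference between the genotypes for ALL, 0.63 ± 0.22, did not pass edgeR (FDR 0.47). Within sets the levels of Slc6a6 and Mpst ran in opposite directions, with r = −0.68 over 16 WT VSMC, −0.91 over 15 KO VSMC and −0.57 over 38 EC libraries, which share sets and conditions.

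Selenbp1, a methanethiol oxidase that releases hydrogen sulfide, fell with ALL in WT VSMC (log2FC −0.60 ± 0.11, edgeR FDR 0.0033, lower in 4 of 4 sets). In EC it fell with HG + FFA (−0.61 ± 0.10, edgeR FDR 0.000393) and with ALL (−0.51 ± 0.10, edgeR FDR 0.00304), lower in 9 of 9 sets both times. The median log2FC of the 11 tested genes was 0.03 with ALL in WT VSMC, beside −0.01 over all genes, and −0.09 with HG + FFA in EC, beside −0.00. With ALL in WT VSMC, 1 of these genes rose (Slc6a6) and 2 fell (Selenbp1 and Tst), and 8 did not pass, beside 7.45% of all genes that passed.

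Of 10 tested genes of the methionine cycle and methyl transfer (9 in EC), 1 rose with ALL in WT VSMC (7.45% of all genes passed), Ahcyl1, a relative of Ahcy (log2FC 0.27 ± 0.06, edgeR FDR 0.0188), a call lost without set 2, 3 or 4 (FDR 0.0578 to 0.168), with no filter on low counts (0.0676), with only the 2 groups in the fit (0.0677) and with no block for the set (0.468). In EC with HG + FFA its log2FC was 0.18 ± 0.05 (edgeR FDR 0.04997), a call lost in 14 of 17 alternatives. Mat1a, Bhmt and Bhmt2, which serve methionine metabolism in liver, were below the count filter in each cell type. Among 9 genes of methionine salvage and polyamines, 1 fell with ALL in WT VSMC, where 7.45% of all genes passed, the spermidine synthase Srm (−0.29 ± 0.08, edgeR FDR 0.0355, lost when any set was left out). Of 11 genes of serine and folate supply, 1 fell with HG + FFA in EC, where 3.53% of all genes passed, the formyltetrahydrofolate dehydrogenase Aldh1l1 (−0.78 ± 0.19, edgeR FDR 0.0172, lost in 6 of 17 alternatives, among them without set 12, 14 or 15). None of 7 genes of cystine import and glutathione synthesis passed edgeR against Control in any of the 3 cell types. In EC with ALL, Gclc, a subunit of the rate-limiting enzyme of glutathione synthesis, had an unadjusted p of 0.00273 in edgeR and passed DESeq2 (FDR 0.035). Between EC and WT VSMC in Control, Mtr (methionine synthase) was higher in EC (log2FC 0.90 ± 0.20, edgeR FDR 0.0135), while Ethe1, the mitochondrial persulfide dioxygenase, was lower (−1.03 ± 0.25, edgeR FDR 0.0193), as were Selenbp1, Tstd3 and Aldh1l1 (edgeR FDR 0.00834 to 0.047).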

How the data were processed

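RNA of 69 libraries was sequenced after poly(A) enrichment. Per the labels and methods, the authors aligned reads with HISAT2 2.1.0 to mm39 and counted them over exons with featureCounts, multi-mapped reads included, and the strand setting is not given in the sources used here. The deposited files hold raw counts per Ensembl gene, 1 table per cell type. From them FPM was computed as counts per 1000000 counts of the library, its total scaled by a TMM factor. These factors were taken over all 69 libraries together. Counts of the tested genes were fitted with edgeR 4.0.16 (TMM, quasi-likelihood test, filterByExpr, set as block) in R 4.3.3, 1 fit per cell type, with a joint fit of the 31 VSMC libraries for genotype, and FDR (Benjamini-Hochberg) taken over all genes tested. DESeq2 1.42.0 was the second tool. A log scale used log2(FPM + 0.1). Plots were drawn with Python 3.11.15 and matplotlib 3.10.9. Scripts were tested on simulated data.

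The members, gene lists, motifs and tests were chosen with earlier results of these data known. The genes named beyond the members were those of a list with edgeR FDR under 0.05 (up to 4 per list and comparison), Egfr, Tst, and the 5 genes most alike Cbs and Mpst by Pearson r within sets. Named outside this rule were Gclc, which passed DESeq2 and not edgeR, and Mat1a, Bhmt and Bhmt2, which fell below the count filter. The set number pairs the samples: libraries of a set share animal, passage and time, and their deviations from the condition means correlated at 0.443 or more in each cell type (mean 0.703, 0.663 and 0.717, against −0.226, −0.218 and −0.0756 between sets). No 2 libraries agreed within sampling noise. Depth per library is given with the results and covers counting error only. Symbols came from the GRCm39 annotation, in which 56310 of 56953 identifiers were found. Alternatives were DESeq2, no count filter, no block, the animal as block, only the groups compared, and each set left out. Leaving out EC sets 9, 11 and 13 together, or any single EC set, was chosen after seeing the data. The result of a pathway gene is not reported here.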

Additional observations from a re-analysis of the deposited data

Results flagged for a closer look

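Of 77 groups of 4 to 10 libraries (7 members by cell type and condition), 14 (18.2%) held a library apart from the others by Dixon's criterion. Its nominal rate of about 1 in 20 holds for independent groups of normally distributed values. These groups of FPM values share sets, so the 18.2% cannot be set against that rate. In EC the Cbs level was high in the Control library of set 14 (17.8 FPM) and, in set 16, with HG + FFA (8.07 FPM) and with ALL (7.81 FPM). Cth was high in set 1 of WT VSMC in Control (4.35 FPM) and with ALL (3.96 FPM), and in EC in set 12 with HG + FFA (3.48 FPM) and set 11 with ALL (2.40 FPM). Mpst was low in KO set 5 with AII + NA (43.6 FPM) and high in EC set 11 with HG + FFA (53.4 FPM). Sqor was low in KO set 5 with HG + FFA (56.3 FPM), and Cdo1 was high in KO set 6 in Control (286 FPM). Mat2a was high in EC set 18 in Control (202 FPM), with HG + FFA (247 FPM) and with ALL (219 FPM). For 0 members did all sets of 1 cell type move opposite to all sets of another under the same stressor.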

How the results depend on the processing

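The count of members passing edgeR depended on the setting in several comparisons. Without a count filter it was 2 in place of 0 for HG + FFA, 1 in place of 0 for AII + NA and 3 in place of 1 for ALL in WT VSMC, 2 in place of 1 for ALL minus AII + NA and 1 in place of 0 for ALL minus the sum there, and 1 in place of 0 for HG + FFA and for ALL in KO VSMC, for ALL in EC and for ALL minus AII + NA in EC. With DESeq2 it was 1 for HG + FFA and 2 for ALL in KO VSMC, 1 for ALL minus AII + NA in KO VSMC and in EC, and 2 for that difference in WT VSMC. Without the replicate block, which pairs libraries of a set, it was 0 in place of 1 for ALL and ALL minus AII + NA in WT VSMC and for HG + FFA in EC. With only the 2 groups compared it was 1 for ALL in KO VSMC and 0 for HG + FFA in EC, and with the animal as block 0 for HG + FFA in EC. Without EC sets 9, 11 and 13 it was 0 for HG + FFA and 1 (Ahcy) for ALL minus AII + NA. Leaving out 1 set at a time gave 0 to 1 for HG + FFA and for ALL in KO VSMC (1 without set 5, Mpst), 0 to 1 for HG + FFA in EC, 0 to 1 for ALL minus AII + NA in EC, and 0 for that difference in WT VSMC. The cause was not tested. The share of all genes that passed under each of these settings is not given here. These counts are therefore not read as results about the members. The other counts of members did not move. Of the 66 member differences whose 95% interval spans 0, 23 changed sign under some alternative, the largest of them at 0.21 on the log2 scale. The 95% intervals rest on a normal approximation from the SE and can be narrower than edgeR's test implies. For Cdo1 with AII + NA in WT VSMC the interval was 0.009 to 0.93, beside an unadjusted edgeR p of 0.0632. The count of 66 is therefore low. Depth limits Cbs and Cth most, with a median of 91.5 and 22.5 counts per EC library.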

Other observations

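The genes whose log2 levels followed Cbs most closely within sets over the 31 VSMC libraries, among 12159 genes averaging 3 FPM or more, were Ace (r = 0.86), Gm17396 (0.83), Comp (0.81), Slc25a45 (0.80) and Ctdspl (0.79). Over the 38 EC libraries the r with Cbs was 0.61 for Ace, 0.05 for Gm17396, 0.19 for Slc25a45 and 0.46 for Ctdspl. Ace encodes the angiotensin-converting enzyme. For Mpst over the 38 EC libraries, among 12274 genes, they were Il11ra1 (0.87), Crip2 (0.87), Ndn (0.86), Slc25a38 (0.85) and Slc66a2 (0.85), with r of 0.94, 0.89, 0.89, 0.67 and 0.45 over the VSMC libraries. These libraries share sets and conditions, and the r are descriptions. Cbs and Cth had r = 0.17 in WT VSMC (16 libraries), 0.77 in KO VSMC (15) and 0.54 in EC (38).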
